A study of Saccharomyces cerevisiae with 2 samples.

Results

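The 9 genes described here encode the protein kinases of the yeast cell wall integrity pathway and the transcription factors below them. They are PKC1 (YBL105C), BCK1 (YJL095W), MKK1 (YOR231W), MKK2 (YPL140C), SLT2 (YHR030C), KDX1 (YKL161C), RLM1 (YPL089C), SWI4 (YER111C) and SWI6 (YLR182W), picked by open reading frame (ORF) name from the 6207 ORF rows of the deposited table of log2 ratios. All 9 had a value on both arrays, as did 5311 ORFs in all. The compared RNAs came from the budding yeast Saccharomyces cerevisiae, in a BY4741 strain with a sho1 mutation, exposed for 3 hours to zymolyase at 0.8 units per ml, and from the same mutant left without the enzyme. Cells of both groups grew in YEPD at 24 °C and lacked Sho1, a membrane protein of the osmosensing HOG pathway. Zymolyase is an enzyme mixture that digests the glucan of the cell wall. No strain with SHO1 was among the samples, so no effect of the mutation can be read from them. SHO1 itself had no value on either array, and ratios cannot show a level, so neither the genotype nor the strain was checked here. One comment, attached to the untreated channel of array 2, calls the strain hog1, against its own genotype label of sho1.

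Weakening of the wall is sensed at the plasma membrane and passed by the GTPase Rho1 to protein kinase C, Pkc1. Pkc1 activates a chain of kinases in which Bck1 acts on the paralogues Mkk1 and Mkk2, and these act on the MAP kinase Slt2. Slt2 in turn activates Rlm1, a factor that drives many wall genes and also the genes SLT2 and KDX1, and the Swi4-Swi6 complex SBF, best known for switching on genes at the start of the cell cycle. The cascade signals by phosphorylation, which transcript ratios do not measure. In wild-type cells zymolyase is known to signal to Slt2 through the Sho1 branch of the HOG pathway. The comparison asks which transcripts change under zymolyase when Sho1 is missing.

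On array 1 the zymolyase RNA carried Cy3 and on array 2 it carried Cy5. The sources used here do not give which channel is on top in each column. The columns were read as deposited, both as zymolyase over untreated, because the labels present both records as that comparison; higher therefore likely means higher with zymolyase. Across all ORFs the columns had a Pearson r of -0.012 and a Spearman rho of -0.26, which leaves the direction unsettled, and each result is also given with array 1 turned, that is, with its sign reversed. Whether each array has its own culture is not in the labels. The p-values here set each mean against the spread between the 2 arrays, mostly pooled over ORFs. That spread may be technical alone. No spot intensities were used here, and the 2 arrays limit the precision of every ratio.

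Of the 9 genes only KDX1 passed the test as higher and none passed as lower; the other 8 did not pass. The test was limma's moderated test of the mean log2 ratio against 0, Benjamini-Hochberg adjusted over the 5311 ORFs, with a threshold of 0.05. It called 41 ORFs higher, 0.772% of those tested, and 0 lower, where 59 had an unadjusted p under 0.05. The median of the 9 mean log2 ratios was 0.0053, against -0.028 over all ORFs. Read as deposited, SLT2 and KDX1, the MAP kinase gene and its paralogue, were above 0 on both arrays, as were 14% of ORFs. These 2 also had an unadjusted limma p under 0.05 as higher, as did 2.49% of ORFs. Of the 9 genes 0 were below 0 on both arrays, against 26.8% of ORFs. The other 7 genes had opposite signs on the arrays, as did 59.2% of ORFs. Among these, 6 were above 0 on array 1 and below 0 on array 2, a pattern of 29.2% of ORFs, and MKK2 had the reverse pattern, found in 30.1% of ORFs. In the turned reading limma called 0 of the 9 and 0% of all ORFs. There 3 of the 9 had an unadjusted p under 0.05 (MKK1, MKK2 and SWI6), against 9.4% of ORFs.

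**Figure D1:**
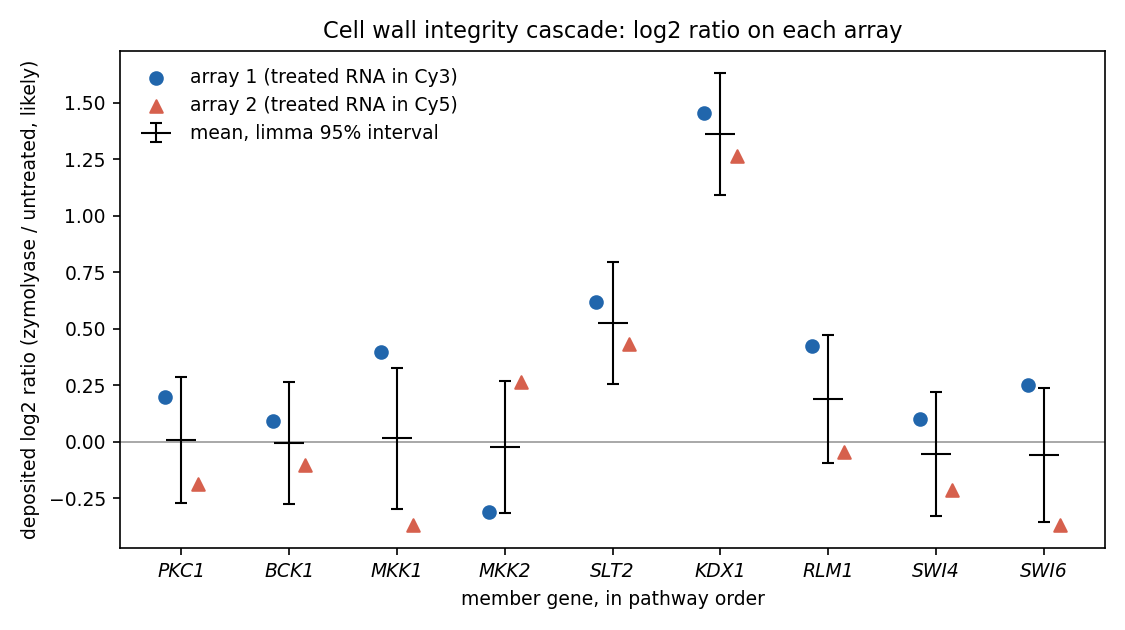
Deposited log2 ratio of each of the 9 genes on array 1 (circles) and array 2 (triangles), with the mean of both (bar) and its 95% interval from limma. KDX1 (1.45 and 1.27) and SLT2 (0.62 and 0.43) lie above 0 on both arrays, and the other 7 genes lie on opposite sides of 0.

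Pkc1, the protein kinase C at the head of the cascade, and Bck1, the kinase of the MAP kinase kinases, had transcripts with small ratios. PKC1 had a log2 ratio of 0.20 on array 1 and -0.19 on array 2. BCK1 had 0.09 on array 1 and -0.10 on array 2. In each gene the values on the arrays were close to mirror images, so that the means lay near 0. The mean of PKC1 was 0.0053 (limma 95% interval -0.27 to 0.28; adjusted p = 1.00) and that of BCK1 was -0.0054 (interval -0.28 to 0.27; adjusted p = 1.00). These intervals rest mostly on the spread shared across ORFs, with 23.5 prior degrees of freedom beside the 1 that each gene's own values give, and their upper ends were 1.22-fold for PKC1 and 1.20-fold for BCK1. In the turned reading the mean of PKC1 was -0.19 (limma adjusted p = 0.524) and that of BCK1 was -0.098 (limma adjusted p = 0.688).

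The genes of the paralogous MAP kinase kinases, which act side by side on Slt2, had ratios of opposite sign to each other on each array. MKK1 had 0.40 on array 1 and -0.37 on array 2. MKK2 had -0.31 on array 1 and 0.26 on array 2. MKK1 thus stood above MKK2 on array 1 and below it on array 2, by log2 differences of 0.71 and -0.63. Their distance between arrays was wide among all ORFs: the absolute difference of MKK1 between arrays lay at percentile 98.1 and that of MKK2 at percentile 94.4. The means were 0.014 for MKK1 (limma 95% interval -0.30 to 0.33; adjusted p = 1.00) and -0.023 for MKK2 (interval -0.32 to 0.27; adjusted p = 1.00). In the turned reading MKK1 had a mean of -0.38 (limma interval -0.59 to -0.18; unadjusted p = 0.00566) and MKK2 had 0.29 (limma interval 0.079 to 0.49; unadjusted p = 0.0172). Neither passed after adjustment there (limma adjusted p = 0.487 for each). Array, dye and the unknown direction of the columns cannot be told apart in these mirrored values.

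SLT2, the gene of the MAP kinase itself, was above 0 on both arrays and just missed the test. Array 1 gave a log2 ratio of 0.62 and array 2 gave 0.43, which is 1.54-fold and 1.35-fold. It ranked 59 from the top of the 5311 ORFs on array 1 and 94 on array 2. The mean was 0.53 ± 0.13 (SD, n = 2 arrays), 1.44-fold, with a limma 95% interval of 0.26 to 0.80 and an adjusted p of 0.063. SLT2 passed when each array was centred on its median, at a mean of 0.55 (limma adjusted p = 0.0254), where 1.02% of ORFs passed as higher, in a fit whose prior spread was 0.21 with prior degrees of freedom estimated as infinite, against 0.187 and 23.5 without centring. Centred and also scaled, it did not pass (mean 0.55; limma adjusted p = 0.177), and over the 6 alternative fits in the deposited direction its limma adjusted p ran from 0.0233 to 0.177. Turning array 1 gave a mean of -0.093 (limma adjusted p = 0.921).

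KDX1, also named MLP1, encodes a paralogue of Slt2. Read as deposited, it passed the test as higher. Array 1 gave a log2 ratio of 1.45 and array 2 gave 1.27, which is 2.74-fold and 2.41-fold. It ranked 3 from the top of all ORFs on array 1 and 18 on array 2. The mean was 1.36 ± 0.13 (SD, n = 2 arrays), 2.57-fold, with a limma 95% interval of 1.09 to 1.63 and an adjusted p of 1.69e-07. By size alone KDX1 was among the 38 ORFs, 0.715%, whose mean reached 1.5-fold with like signs on the arrays, and among the 17, 0.32%, that reached 2-fold. With array 1 turned its mean was -0.094 and the call was lost (limma adjusted p = 0.966), since the array values then differ widely (interval -1.80 to 1.61).

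Read as deposited, KDX1 exceeded SLT2 by nearly the same amount on each array. The difference of their log2 ratios was 0.84 on array 1 and 0.83 on array 2, a mean of 0.83 or 1.78-fold. Both ratios were a little higher on array 1, by 0.19 for each gene, at percentiles 52.3 and 52.7 of all ORFs for the absolute difference between arrays. In this reading the pair were the only genes of the 9 with the same sign on both arrays. With array 1 turned, each of the pair had opposite signs on the arrays. Their means were then nearly equal, at -0.094 for KDX1 and -0.093 for SLT2. How far a spot of one paralogue also binds labelled cDNA of the other, here or for MKK1 and MKK2, was not tested.

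**Figure D2:**
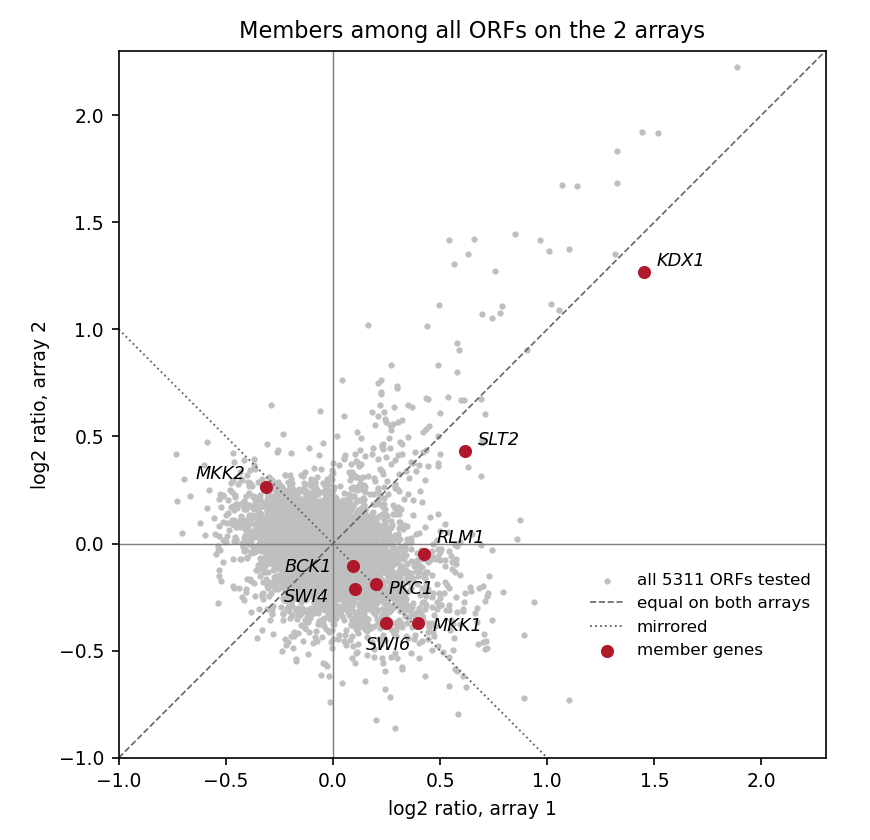
Log2 ratio on array 1 (x axis) against array 2 (y axis) for the 5311 ORFs tested (grey) and the 9 genes (red), with lines for equal and for mirrored values. SLT2 and KDX1 lie near the line of equal values, while PKC1, BCK1, MKK1 and MKK2 lie close to the mirrored line.

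Rlm1 is a MADS-box factor activated by Slt2, and its own gene had a value above 0 on array 1 alone. RLM1 had a log2 ratio of 0.43 on array 1, rank 182 of 5311, and -0.048 on array 2, rank 3053. Its mean of 0.19 came next after those of KDX1 and SLT2 and did not pass (limma 95% interval -0.097 to 0.47; adjusted p = 1.00). Turning array 1 gave a mean of -0.24 (limma adjusted p = 0.561).

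The genes of SBF both had lower values on array 2 than on array 1. SWI4, which encodes the DNA-binding subunit, had 0.10 on array 1 and -0.21 on array 2. SWI6, which encodes the regulatory subunit shared with the related complex MBF, had 0.25 on array 1 and -0.37 on array 2. The means were -0.055 for SWI4 (limma 95% interval -0.33 to 0.22; adjusted p = 1.00) and -0.061 for SWI6 (interval -0.36 to 0.24; adjusted p = 1.00). The difference of SWI6 between arrays lay at percentile 95.6 of all ORFs. In the turned reading the means were -0.16 for SWI4 (limma adjusted p = 0.569) and -0.31 for SWI6 (limma adjusted p = 0.487; unadjusted p = 0.0158). MBP1, which encodes the DNA-binding partner of Swi6 in MBF, was mirrored as well, at 0.23 on array 1 and -0.23 on array 2.

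**Figure D3:**
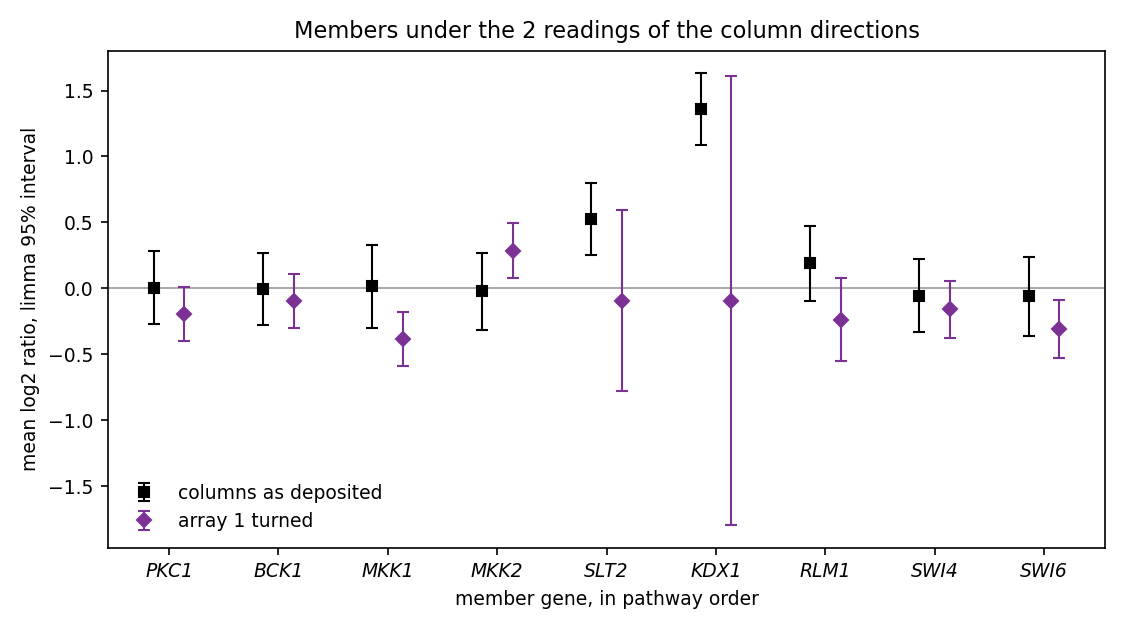
Mean log2 ratio of each of the 9 genes with its limma 95% interval, with the columns as deposited (black squares) and with array 1 turned (purple diamonds). KDX1 has a mean of 1.36 as deposited and -0.094 with array 1 turned, whereas MKK1 has 0.014 as deposited and -0.38 turned.

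Among genes listed here as targets of Rlm1, other than SLT2 and KDX1, 4 of 15 measured passed as higher, 0 as lower and 11 did not pass; 0.772% of all ORFs passed as higher. The 4 were CRG1, CWP1, PRM5 and NCW2. This list, like the other lists here, was chosen with earlier results of these data known, and nothing is read from its count. CWP1, a wall mannoprotein gene, had log2 ratios of 0.78 and 1.08 on arrays 1 and 2, and PRM5, a membrane protein gene of cell integrity signalling, had 0.58 and 0.94. The median of the list was 0.27, and 11 members were above 0 on both arrays, as were 14% of all ORFs. In the turned reading its median was 0.12 and 0 members passed. The targets of SBF had a median of -0.016, with 0 of 13 past the test and 9 of opposite sign on the arrays. Of all ORFs 59.2% were of opposite sign. CLN1, a G1 cyclin gene, had -0.091 and -0.036, and TOS4, a forkhead-domain gene, had -0.21 and -0.15. The targets of MBF had a median of -0.034 with 0 of 14 past the test.

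Upstream of Pkc1, 1 of 10 measured genes passed as higher and 0 as lower, where 0.772% of all ORFs passed as higher. It was TUS1, which encodes an exchange factor that loads Rho1 with GTP, at 1.32 on array 1 and 1.35 on array 2. RHO1 had 0.084 and 0.11. PKH1 and PKH2, genes of the kinases that phosphorylate Pkc1, had means of -0.19 and -0.21 without passing. Of 7 measured negative regulators, LRG1, which encodes a GTPase-activating protein for Rho1, passed as higher with 0.74 and 1.05, and 0 passed as lower, beside the same 0.772% of ORFs. PTP2, the gene of a tyrosine phosphatase of MAP kinases, had 0.35 and 0.23 without passing (limma adjusted p = 1.00). With array 1 turned, 0 genes of these lists passed. Both lists were chosen with earlier results known, and nothing is read from their counts either.

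The other MAP kinase cascades gave a comparison for the kinases. Of the 9 cell wall integrity genes 7 had opposite signs on the arrays, against 8 of the 9 kinase genes of the other cascades. Among all ORFs the share was 59.2%. The 7 include the factor genes RLM1, SWI4 and SWI6, and the kinase genes among them are PKC1, BCK1, MKK1 and MKK2. Of the 9 kinase genes of the other cascades 0 passed, and their means ran from -0.12 to 0.043. STE11, of the mating and HOG cascades, was the only one above 0 on both arrays, at 0.058 and 0.029. KSS1, the filamentation MAP kinase gene, was singled out after its values were seen: it had -0.47 on array 1 and 0.42 on array 2, a mirrored pair like MKK2. Of 7 measured partner factors of SBF and Rlm1, 0 passed; STB1, a Swi6-binding protein gene, had -0.33 and -0.23.

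**Figure D4:**
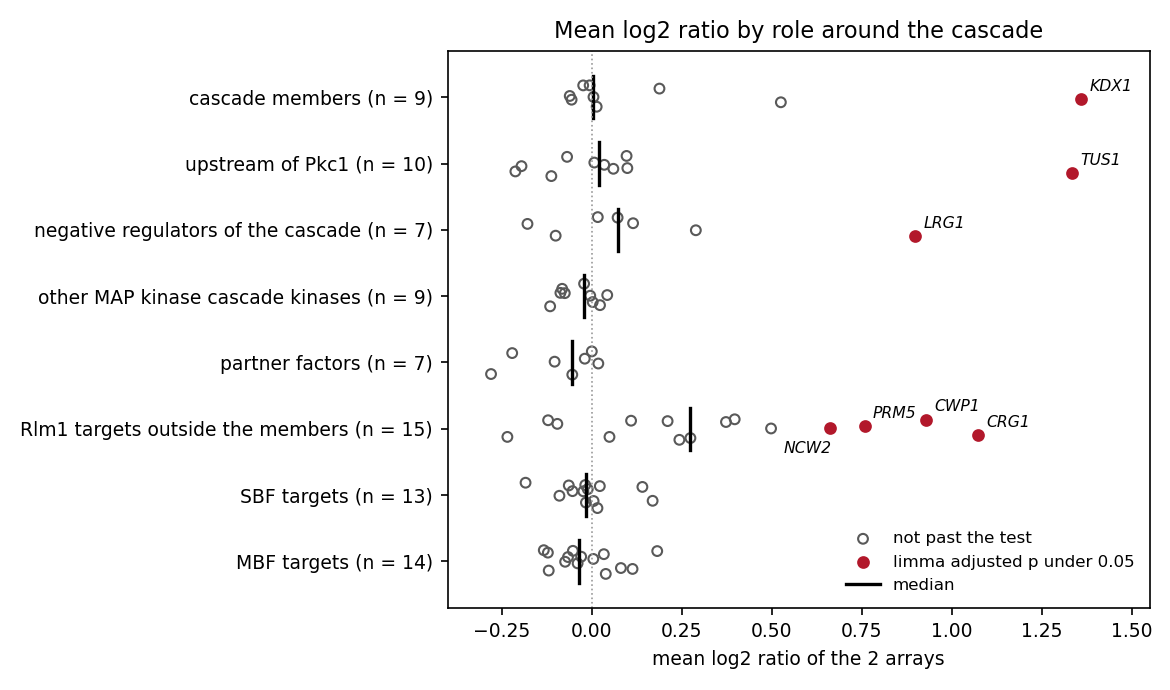
Mean log2 ratio of the 2 arrays for the cell wall integrity cascade and 7 lists of related genes, 1 point per gene, filled where limma's adjusted p is under 0.05, with the median of each list as a bar. The called genes are KDX1, TUS1, LRG1 and 4 Rlm1 targets (CRG1, CWP1, PRM5 and NCW2), read as deposited; with array 1 turned none of them passed.

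Among ORFs with a gene symbol, those nearest to KDX1 and SLT2 over both arrays were found by Euclidean distance between log2 ratios. This is a likeness over only 2 values. Nearest to KDX1 were TUS1 at a distance of 0.163, IDP2, the cytosolic NADP isocitrate dehydrogenase gene, at 0.368 and CRG1 at 0.436. Nearest to SLT2 were PMT3, a protein O-mannosyltransferase gene, at 0.138, SEA4, a gene of the vacuolar SEA complex, at 0.146 and FRE6, a vacuolar metalloreductase gene, at 0.182. None of these 3 genes near SLT2 passed (limma adjusted p from 0.224 to 0.255). ORFs without a symbol were left out of the search. Among them YBR012W-A, at 0.69 on array 1 and 0.48 on array 2, lay nearer to SLT2 than these 3. It passed as higher (limma adjusted p = 0.0215), but not with array 1 turned (limma adjusted p = 0.920).

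The genes beside each of the 9 on the chromosome were read by their order in the R64 annotation, a choice made after values were seen. Of 18 adjacent genes 16 had values on both arrays, and 1 passed as higher, where 0.772% of all ORFs did. The set was chosen with values known, and nothing is read from this count. The gene that passed was YPL088W, known only by its ORF name, which is transcribed away from RLM1 on its other side. It had 1.02 on array 1 and 1.12 on array 2 (limma adjusted p = 6.46e-06). With array 1 turned its mean was 0.050 and it did not pass (limma adjusted p = 0.973). RLM1, across the shared intergenic stretch, had 0.43 and -0.048. ELF1, which is placed likewise beside KDX1, had 0.17 and -0.0055 and did not pass. SWI6 and VTA1, also transcribed away from each other, had nearly the same pair of values: 0.25 and -0.37 for SWI6, 0.24 and -0.37 for VTA1. SWI4 and LSM4, placed likewise, differed more: 0.10 and -0.21 for SWI4, 0.47 and -0.43 for LSM4. Values above 0 on array 1 and below 0 on array 2 were found in 29.2% of all ORFs. PKC1 was mirrored on the arrays, while its neighbours SRO77 and SEA4 were above 0 on both, with means of 0.23 and 0.43 that did not pass.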

How the data were processed

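Two-colour arrays carried Cy3- and Cy5-labelled cDNA of treated and untreated cells, with dyes swapped between the arrays, per the labels' protocols. The authors deposited 1 log2 ratio per ORF and array; the unit was read from the values, while the sources used here do not give the scanner, background correction or normalization. Of 6207 ORF rows, 5654 matched an R64 locus tag. ORFs with values on both arrays (5311) were fitted in R 4.3.3 by lmFit (intercept only) and eBayes of limma 3.58.1, and p-values were adjusted by Benjamini-Hochberg. The fit was tested on simulated data in which the 2 arrays had independent noise. The negative rank correlation of the real arrays was not simulated, so that test does not cover it. No dye term was fitted, since it would use up the residual degree of freedom. Alternatives were a turned array 1, centring, scaling, ORFs with 1 value, robust variances, a filter on sign, single arrays, other thresholds, rules of size and a correction for gene length. The 9 genes and the lists were chosen with earlier results of these data known. Named beside the 9 were, per list, up to 4 genes of one sign with the largest smaller absolute value and those past the test. MBP1, KSS1, NDD1, HIS3, LEU2, URA3, MET17, MF(ALPHA)2, YBR012W-A and the adjacent genes were named beyond it. A planned promoter motif search was not run, and sequences were not used here. Tables and plots were made with matplotlib 3.10.9, pandas 2.3.3, scipy 1.17.1 and numpy 2.4.6 in Python 3.11.15.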

Additional observations from a re-analysis of the deposited data

How the results depend on the processing

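All alternatives were planned. With array 1 turned, 0 of the 9 genes and 0 of all ORFs passed as higher, against 1 and 41 as deposited, and means changed sign to -0.19 for PKC1, -0.38 for MKK1, 0.29 for MKK2, -0.093 for SLT2, -0.094 for KDX1 and -0.24 for RLM1. KDX1 stayed past the test in the other 6 fits. SLT2 joined it, making 2 genes, with centred arrays, among ORFs of one sign on both arrays and at a threshold of 0.10. Among ORFs of one sign, 63 passed as higher and 5 as lower, and the median of the members left, SLT2 and KDX1, was 0.94; the filter itself removes the other 7. Scaled arrays gave 21 ORFs higher, and the 2-fold rule 17. Means near 0 changed sign without passing: BCK1 to 0.020 centred and 0.011 scaled, MKK2 to 0.0021 centred, 0.027 scaled and 0.023 corrected for length, and PKC1 to -0.00041 corrected for length. The cause of these changes was not tested. On single arrays, which allow no test, the median of the 9 was 0.25 on array 1 and -0.10 on array 2. Each array holds both RNAs, so each ratio already pairs treated with untreated RNA. The ratios form 1 group, and no further pairing was possible.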

Other observations

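Some values belong to no comparison above. The control spots named 3XSSC and Arabidopsis had log2 ratios of -0.0074 and 0.062 on array 1, and of 0.16 and 0.31 on array 2. The value of 0.31 is larger than that of MKK2 on the same array, 0.26. HIS3 and LEU2, which carry deletions in BY4741, had ratios of -0.24 and -0.30 on array 1 and of 0.026 and 0.058 on array 2. URA3 and MET17, deleted in the same strain, had no value. Of the markers of the alpha mating type, which the MATa strain BY4741 should not express, SAG1 had -0.052 and -0.16, MF(ALPHA)2 had -0.39 and 0.27, and the other 2 had no value. NDD1, a cell cycle activator gene in the list of SBF targets, had 0.71 on array 1 and -0.42 on array 2, and was picked out after its values were seen.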
